A study of Mus musculus with 30 samples.

Results

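Nr1h2, Nab1, Tef and Kat2b are 4 genes for nuclear proteins that control transcription. The study had listed each of them as changed in the brain of mice without cyclooxygenase (COX)-1 or COX-2. They were therefore selected on measured values, those of the 4 comparisons of null with wild-type mice. They had 6 probes, 5 found by their annotated symbol and 1 by its values, in a table in which 7151 genes had a probe with a lone symbol (9663 probes), 436 probes had several symbols and 6797 had none. Nab1 had 2 probes (6790 and 10902), Kat2b had 2 (2625 and 13210) and Tef had 1 (7839). No probe carried the symbol Nr1h2. Its probe (2061) was identified as the only row whose z ratio and P in the hippocampus of both lines equalled those of the study's list, so its name rests on that match alone.

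Nr1h2 encodes liver X receptor beta, a nuclear receptor that is switched on by oxysterols and, as a dimer with a retinoid X receptor, drives genes of cholesterol efflux such as Abca1. Nab1 is a corepressor that binds the EGR family of activity-induced transcription factors and recruits chromatin remodelers such as Chd4. Tef is a PAR bZIP factor, which binds D-box elements and carries the output of the circadian clock to genes such as Pdxk. Kat2b (PCAF) is a histone acetyltransferase and a subunit of the SAGA and ATAC complexes, through which it acts as a coactivator of many factors. In the brain these proteins belong to lipid handling in glia and neurons, to the response to synaptic activity, to daily rhythm and to chromatin acetylation.

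COX-1 and COX-2 convert arachidonic acid to prostaglandin H2, and each was deleted in its own mouse line on a mixed genetic background. Expression was measured in cerebral cortex and hippocampus of mice of 12 weeks of age on 30 nylon membrane arrays, 3 in each of 10 groups. In each region the groups were COX-1 wild-type (COX-1+/+), COX-1 null (COX-1-/-), COX-2 wild-type (COX-2+/+), COX-2 heterozygous (COX-2+/-) and COX-2 null (COX-2-/-). The study's methods state 3 mice a group and also triplicate hybridisation, so the spread between arrays may be partly technical, and p-values measure that spread alone. The deletions were present in every cell, wild-type mice came from wild-type matings, and null mice came from null males and heterozygous females, so null and wild-type mice were not littermates. The breeding of the heterozygotes is not described in the sources used here. Sacrifice was with pentobarbital, which all groups shared. Probes of the deleted genes were not found by symbol, so the genotypes were not checked on the arrays.

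The unit throughout is Z, the deposited value, in which 1 is the standard deviation (SD) of the natural log intensities of an array and 0 is their mean. A difference in Z is a difference on that log scale and not a fold change, and the intensities themselves were not used here. The Z of 1 probe is not set against that of another. In the first part of the table, an equal number of rows to the second, the values were identical on 5 of the 6 COX-1 cortex arrays, and COX-1 cortex was left out for these rows. Nr1h2, Nab1 probe 6790, Tef and Kat2b probe 2625 lie in those rows and so had 8 groups and 24 arrays, while Nab1 probe 10902 and Kat2b probe 13210 had 10 groups and 30 arrays. Over the second part, arrays of a group correlated at 0.984 to 0.993. Bulk tissue was measured, so fewer cells of a type and less RNA per cell cannot be told apart.

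Few cell or region markers were on the membrane. Of the listed marker genes, 3 of 7 were found for astrocytes, 2 of 6 for neurons, 2 of 7 for microglia, 2 of 5 for endothelium, 1 of 4 for choroid plexus and none of 6 for oligodendrocytes. For the regions, 2 of 7 hippocampus markers and 1 of 8 cortex markers were found. The cortex marker probe stayed below 0 in every group with values (group means of -0.765 to -0.433). Among the hippocampus markers only Tyro3 passed the filter on low values, and its hippocampus minus cortex difference was called in COX-1+/+ mice (0.109, adjusted p = 0.0467). It was of like size but not called in COX-2+/- (0.107, adjusted p = 0.0862) and COX-2+/+ mice (0.0963, adjusted p = 0.164), and it was -0.0663 and -0.0342 in COX-1-/- and COX-2-/- mice. The arrays therefore offer little check of the labelled tissue. The choroid plexus marker, Ttr, had group means of 0.994 to 1.61 in hippocampus and 0.199 to 0.691 in the cortex groups with values. It spanned 1.29 to 1.89 in COX-1+/+ hippocampus, while each of the other 4 hippocampal groups held arrays under 0.41 and over 1.9, and its part in the results below was not tested.

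The windows of 250 bases before the annotated start of each gene were read from RefSeq (GRCm38.p6) and searched on both strands for the EGR site GCGNGGGCG, the E-box CACGTG through which clock factors act, and the D-box TTANGTAA. They are shown for Nab1 and Tef, whose windows held a match to a factor tied to the gene: EGR factors are what Nab1 acts on, and E-boxes are where clock factors drive rhythmic genes such as Tef. The Nab1 window (chr1:52500449-52500698, minus strand) held 3 EGR sites, at 141, 109 and 38 bases before the start. An EGR site was found in 4.7% of 32851 windows of this length. Both Tef windows (chr15:81802423-81802672 and chr15:81811164-81811413, plus strand) held 1 E-box, at 127 and 138 bases before the start, against 6.02% of all windows. No window of the 4 genes held a D-box (2.06% of all windows), and those of Nr1h2 and Kat2b held none of the motifs. Capitals mark the motif, and a match describes the letters only.
Nab1, upstream window: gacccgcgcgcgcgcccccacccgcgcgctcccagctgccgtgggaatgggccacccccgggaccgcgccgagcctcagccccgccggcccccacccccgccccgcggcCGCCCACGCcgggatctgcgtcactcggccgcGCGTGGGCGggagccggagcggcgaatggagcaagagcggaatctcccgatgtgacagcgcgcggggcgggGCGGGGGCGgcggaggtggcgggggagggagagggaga
Tef, upstream window of the start at the lower coordinate: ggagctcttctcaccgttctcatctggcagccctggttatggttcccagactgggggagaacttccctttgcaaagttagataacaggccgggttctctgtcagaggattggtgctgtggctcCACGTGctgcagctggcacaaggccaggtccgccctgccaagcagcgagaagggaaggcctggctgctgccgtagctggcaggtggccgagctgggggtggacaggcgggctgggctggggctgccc
Tef, upstream window of the start at the higher coordinate: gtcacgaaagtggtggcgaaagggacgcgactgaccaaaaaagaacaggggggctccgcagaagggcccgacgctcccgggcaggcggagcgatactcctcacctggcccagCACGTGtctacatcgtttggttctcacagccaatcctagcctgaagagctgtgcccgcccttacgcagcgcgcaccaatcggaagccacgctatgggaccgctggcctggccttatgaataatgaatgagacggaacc

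In the comparisons of null with wild-type mice, which chose the genes, Tef and Nab1 were lower in COX-2-/- cortex, Kat2b (probe 13210) was higher in COX-1-/- cortex, Nr1h2 was higher in null hippocampus of either line, Nab1 was higher in COX-1-/- hippocampus and Tef in COX-2-/- hippocampus. The study's rule asked for a mean Z above 0, a P under 0.05 from its Z test and a z ratio beyond 1.5, the z ratio being the difference between the group means divided by an SD. The methods name the SD of all genes on an array as the divisor. The SD of the differences over all probes was used here instead, since with it the z ratios and P of probe 2061 equal the listed ones of Nr1h2. The same match identified the probe, so it is no separate check of the divisor. Of the 6 probes, 4 had a mean Z above 0, 1 for each gene. Nab1 probe 10902 and Kat2b probe 2625 did not, and could not be called. The rule was met in COX-1-/- cortex by 1 of 1 of these probes with values (2.71% of all probes with a mean Z above 0), in COX-2-/- cortex by 2 of 4 (4.32%), in COX-1-/- hippocampus by 2 of 4 (4.8%) and in COX-2-/- hippocampus by 2 of 4 (4.09%). Since the genes were chosen for it, nothing is read from these counts.

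In the comparisons that did not choose the genes, limma with Benjamini-Hochberg adjustment over all probes with a mean Z above 0 called 2 differences among the 4 probes, both between regions. Kat2b probe 13210 was lower in hippocampus than in cortex of COX-1-/- mice (1 of 1 probe, against 25.2% of all probes). Nab1 probe 6790 was lower in hippocampus than in cortex of COX-2+/+ mice (1 of 4 probes, against 3.43%). No probe of the set was called between regions in COX-1+/+ mice (0 of 1, against 28.5%), in COX-2-/- mice (0 of 4, against 0.51%) or in COX-2+/- mice (0 of 4, against 12.6%). Between genotypes, 0 of 4 were called for COX-2+/- against wild-type cortex, where limma called 0 of 8011 probes (0%) and 585 had an unadjusted p under 0.05. The same held for COX-2+/- against null cortex, with 0 of 7988 probes called (0%) and 740 with an unadjusted p under 0.05. In the hippocampus 0 of 4 were called for COX-2+/- against wild-type mice (2.82% of all probes) and for COX-2+/- against null mice (0.746%). Between the wild-type mice of the lines, 0 of 1 was called in cortex (1.95%) and 0 of 4 in hippocampus (5.25%). At an unadjusted p under 0.05 the 4 probes held 1 in COX-2+/- against wild-type cortex and 3 in COX-2+/- against null cortex. In hippocampus they held 1 in COX-2+/- against wild-type mice, where 1501 of all 8041 probes did so, and 2 in COX-2+/- against null mice (1344 of 8048). Between the wild types they held 0 in cortex (711 of 4103) and 0 in hippocampus (1826 of 8054). Apart from the regional test in COX-2+/- mice, these tests, genotype and regional alike, share wild-type or null arrays with the comparisons that chose the genes. They are therefore not independent of the choice.

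**Figure D1:**
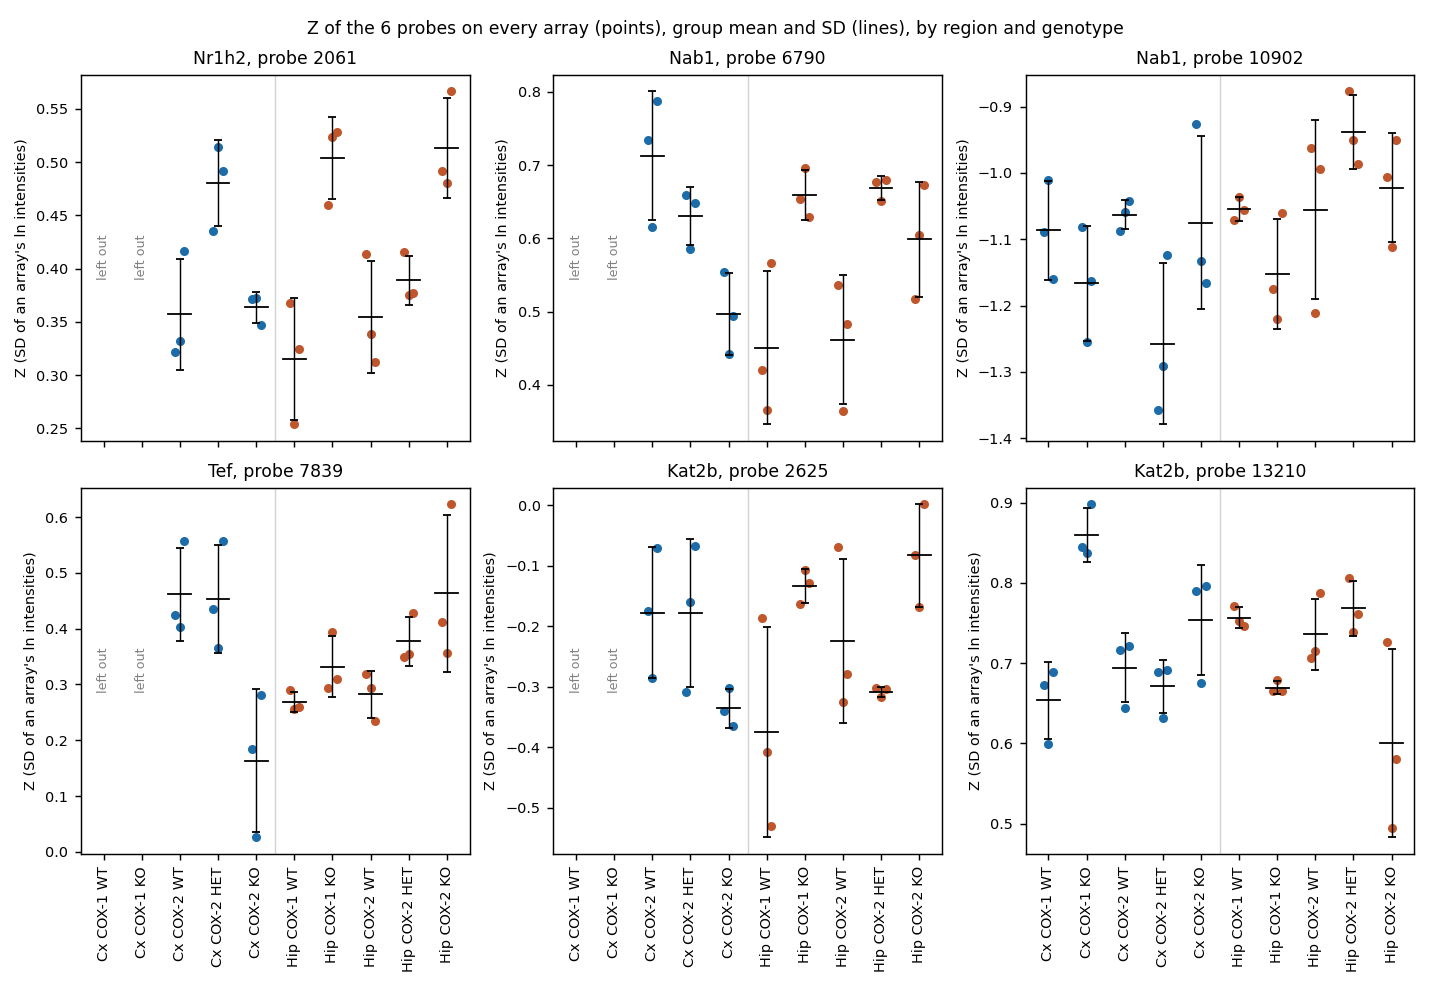
Z of each of the 6 probes (vertical axes, with a scale of their own) on every array, by region (Cx, cortex; Hip, hippocampus) and genotype. Points are arrays, long lines group means and bars 1 SD (n = 3); the COX-1 cortex values of 4 probes were left out. The highest Kat2b probe 13210 values are those of the 3 COX-1-/- cortex arrays, from 0.837 to 0.898.

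Nr1h2 had the highest means in the hippocampus of both null lines. On the 3 arrays of COX-1-/- hippocampus its Z was 0.459, 0.524 and 0.528, and on those of COX-1+/+ hippocampus 0.367, 0.254 and 0.324. In COX-2-/- hippocampus the arrays gave 0.492, 0.48 and 0.567, against 0.414, 0.338 and 0.312 in COX-2+/+ hippocampus. In both lines each null array lay above each wild-type array. The difference was 0.189 in the COX-1 line (z ratio 1.65) and 0.158 in the COX-2 line (z ratio 1.51), the latter just inside the threshold of 1.5. The first missed the rule without wild-type replicate 2 (0.158) or null replicate 3 (0.176). The other missed it without wild-type replicate 2 (0.15) or 3 (0.137) or without null replicate 1 (0.169) or 3 (0.131). Heterozygous hippocampus was at 0.416, 0.375 and 0.377, a level closer to wild type than to null. Heterozygous minus null was -0.124 (95% interval -0.219 to -0.0285, adjusted p = 0.191) with no overlap of the arrays, and heterozygous minus wild type was 0.0344 (-0.0608 to 0.13, adjusted p = 0.734).

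In the cortex of the COX-2 line it was the heterozygotes that stood higher in Nr1h2. Their arrays gave 0.435, 0.514 and 0.492, those of COX-2+/+ mice 0.321, 0.332 and 0.417 and those of COX-2-/- mice 0.371, 0.373 and 0.347. Null and wild-type cortex overlapped and differed by 0.00667, which turned to -0.011 without wild-type replicate 1 and to -0.0056 without replicate 2. The heterozygotes did not overlap with either group, yet the differences of 0.123 from wild type (0.00668 to 0.24, adjusted p = 0.672) and 0.117 from null (interval from just above 0 to 0.233, adjusted p = 0.535) did not pass. Hippocampus and cortex of COX-2-/- mice did not overlap either (difference 0.149, interval 0.0494 to 0.249, adjusted p = 0.134). In the order of the 8 group means, from 0.315 in COX-1+/+ hippocampus to 0.513 in COX-2-/- hippocampus, the only step between neighbours larger than the pooled SD of 0.0431 was that of 0.0911 from heterozygous hippocampus to heterozygous cortex.

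Nab1 probe 6790 was highest in cortex of COX-2+/+ mice. The arrays there were at 0.735, 0.615 and 0.788, and those of COX-2-/- cortex at 0.554, 0.441 and 0.494. The null cortex was lower on every array, with a difference of -0.216 in the mean (z ratio -2.14). In the hippocampus of the COX-1 line the null arrays, at 0.653, 0.696 and 0.629, all lay above the wild-type ones, at 0.42, 0.365 and 0.567 (difference 0.209, z ratio 1.82), and without wild-type replicate 1 (0.193) or 2 (0.166) the rule was missed. In the COX-2 line hippocampal Nab1 was 0.517, 0.605 and 0.673 in null mice and 0.537, 0.364 and 0.483 in wild-type mice. These groups overlapped, and the difference of 0.137 (z ratio 1.31) lay just outside the rule.

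Among COX-2+/+ mice the corepressor was lower in hippocampus than in cortex. The difference was -0.251 (95% interval -0.377 to -0.125, adjusted p = 0.0268), with no overlap of the arrays. The cortex arrays are the wild-type ones of a comparison that chose Nab1, so the interval and p carry that choice. The call did not hold without cortex replicate 1 (adjusted p = 0.0817) or 3 (0.0842), or without hippocampus replicate 2 (0.146) or 3 (0.0508). Nor did it hold with only these 2 groups fitted (0.109) or with the replicate number as a block. In COX-2-/- mice hippocampus was 0.102 above cortex (-0.0241 to 0.228, adjusted p = 0.45), and in heterozygotes 0.0382 above (-0.088 to 0.164, adjusted p = 0.733). Whether the regional difference itself differed between the genotypes was not tested, since the null comparisons that chose Nab1 are part of it. The heterozygous hippocampus was at 0.676, 0.65 and 0.68, every array above the wild-type ones, and the difference of 0.208 (0.0821 to 0.333, adjusted p = 0.0717) missed the threshold. Heterozygous cortex lay between wild type and null, with a difference of -0.0819 from the former (adjusted p = 0.782) and 0.134 from the latter (adjusted p = 0.529). From 0.451 in COX-1+/+ hippocampus to 0.713 in COX-2+/+ cortex, only the step of 0.102 from null cortex to null hippocampus of the COX-2 line exceeded the pooled SD of 0.0695.

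The other Nab1 probe, 10902, did not share this pattern. Its Z lay between -1.36 and -0.877 on all 30 arrays, far below the array mean, and it failed the filter. Its null minus wild-type difference was -0.0801 in COX-1 cortex, -0.0123 in COX-2 cortex, -0.0978 in COX-1 hippocampus and 0.0331 in COX-2 hippocampus, with overlapping arrays in all 4. Only in the heterozygotes did its hippocampal and cortical arrays separate, with means of -0.938 and -1.26. Over 24 arrays the Nab1 probes had a Pearson r of 0.0583.

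Tef had its lowest mean in COX-2-/- cortex. The arrays there were at 0.184, 0.0266 and 0.28, against 0.424, 0.404 and 0.557 in COX-2+/+ cortex and 0.435, 0.366 and 0.558 in heterozygous cortex. Every null array lay below every array of both other genotypes. The null minus wild-type difference was -0.298 (z ratio -2.94), the largest in size among the 4 probes in the null comparisons. Heterozygous cortex was at the wild-type level (difference -0.0084, 95% interval -0.172 to 0.155) and 0.289 above null cortex (0.126 to 0.453, adjusted p = 0.459). In that comparison the unadjusted p was 0.00211 and no probe of the whole table passed the adjustment. Its null arrays are those of a comparison that chose Tef, so the interval and p carry that choice.

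In the hippocampus Tef went the other way in the COX-2 line. The null arrays were at 0.412, 0.356 and 0.623 and the wild-type ones at 0.318, 0.293 and 0.235, with no overlap and a difference of 0.182 (z ratio 1.73). The highest null array, replicate 3, stood apart from the other 2. The rule was missed without it (0.102), without null replicate 1 (0.208) and without wild-type replicate 3 (0.158). In the COX-1 line the null arrays, at 0.293, 0.394 and 0.309, also lay above those of wild-type mice, at 0.29, 0.257 and 0.259, by 0.0635 in the mean (z ratio 0.555). Heterozygous hippocampus, at 0.349, 0.354 and 0.428, differed by 0.095 from wild type (-0.0318 to 0.222, adjusted p = 0.415) and by -0.0867 from null (-0.213 to 0.04, adjusted p = 0.481). The hippocampus minus cortex difference was 0.3 in COX-2-/- mice (0.155 to 0.446, adjusted p = 0.0533), just short of the threshold. It passed without hippocampal replicate 1 (0.326, adjusted p = 0.0327) or with median centring (adjusted p = 0.0475). With the replicate number as a block it was not called, nor with only the 2 groups fitted, where 0 of all probes were. The null arrays of both regions are those of comparisons that chose Tef, so the interval and p carry that choice. In COX-2+/+ mice, with the wild-type arrays of the same comparisons, the difference was -0.179 (-0.325 to -0.0339, adjusted p = 0.14). Of the steps between neighbouring group means only that of 0.105 above COX-2-/- cortex exceeded the pooled SD of 0.0863.

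Kat2b probe 13210 had its highest mean in COX-1-/- cortex. The 3 arrays gave 0.844, 0.837 and 0.898, against 0.673, 0.599 and 0.689 in COX-1+/+ cortex. All null arrays were the higher, by 0.206 in the mean (z ratio 1.86), and without wild-type replicate 2 the difference was 0.179 and missed the rule. In COX-1 hippocampus the direction was the opposite, with 0.665, 0.679 and 0.665 in null mice and 0.771, 0.753 and 0.746 in wild-type mice (difference -0.087, z ratio -0.76). In COX-2-/- hippocampus the values were 0.726, 0.495 and 0.58, against 0.707, 0.715 and 0.787 in wild type (difference -0.136, z ratio -1.3), and the groups overlapped. COX-2-/- cortex, at 0.79, 0.675 and 0.797, differed from wild type, at 0.717, 0.645 and 0.721, by 0.0598 with overlap.

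The acetyltransferase was thus lower in hippocampus than in cortex of COX-1-/- mice, with a difference of -0.19 (95% interval -0.283 to -0.0978, adjusted p = 0.00289) and no overlap of the arrays. In COX-1+/+ mice, whose cortex arrays are the wild-type ones of that comparison, it was 0.103 higher in hippocampus (0.0104 to 0.195, adjusted p = 0.0878). In COX-2-/- mice the difference was -0.154 (-0.246 to -0.0613, adjusted p = 0.0997; without hippocampal replicate 1 -0.217, adjusted p = 0.00844), while in COX-2+/+ mice it was 0.0419 higher (-0.0506 to 0.134) and in heterozygotes 0.0977 higher (0.00521 to 0.19, adjusted p = 0.158). Heterozygous hippocampus, at 0.806, 0.739 and 0.762, was 0.168 above null hippocampus without overlap (0.0592 to 0.278, adjusted p = 0.134; without null replicate 1 0.231, adjusted p = 0.0475) and 0.0325 above wild type (-0.0767 to 0.142). With the replicate number as a block, neither this heterozygous minus null difference nor the regional one of COX-2-/- mice was called. With only the 2 groups fitted, 0 of all probes were called between regions of COX-2-/- mice. Heterozygous cortex, at 0.689, 0.632 and 0.691, differed by -0.0233 from wild type (-0.115 to 0.0685). Along the 10 group means, from 0.6 in COX-2-/- hippocampus to 0.86 in COX-1-/- cortex, only the steps of 0.0534 above the lowest mean and of 0.0912 below the highest exceeded the pooled SD of 0.053.

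Kat2b probe 2625 was below 0 on all but 1 of 24 arrays (-0.529 to 0.00142) and failed the filter. It moved against probe 13210. Its null minus wild-type difference was 0.241 in COX-1 hippocampus without overlap, 0.141 in COX-2 hippocampus and -0.159 in COX-2 cortex without overlap, and in each of these comparisons probe 13210 had the opposite sign. Over 24 arrays the Kat2b probes had an r of -0.484, so the direction given for this gene depends on the probe. Across genes, Nr1h2 and Kat2b probe 2625 had the highest r of the 15 pairs (0.752, 24 arrays), followed by Nab1 probe 6790 and Tef (0.658). These correlations share arrays and groups and are given as a description.

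**Figure D2:**
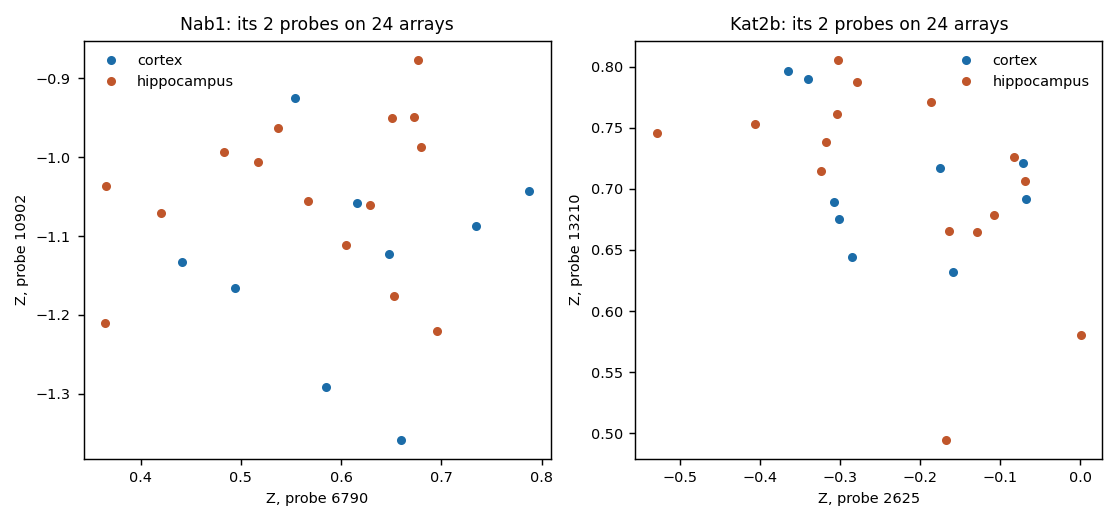
Z of the 2 probes of Nab1 (left) and of Kat2b (right) on the 24 arrays with values for both; each point is an array, coloured by region. The Nab1 probes show no common slope (r = 0.0583) and the Kat2b probes run against each other (r = -0.484).

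**Figure D3:**
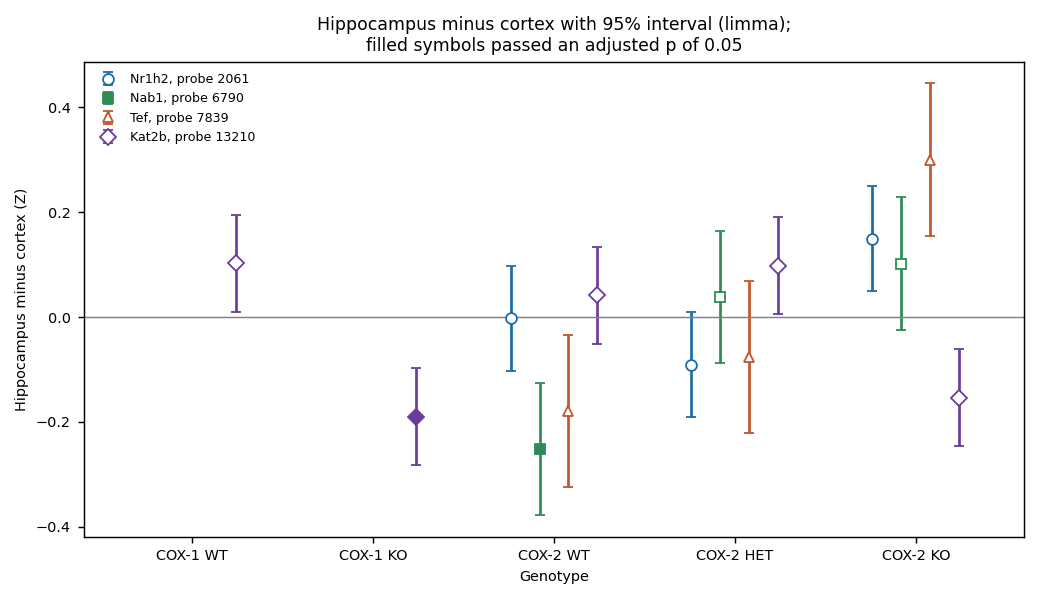
Hippocampus minus cortex in Z (vertical axis) for the 4 probes with a mean Z above 0, by genotype, with the 95% interval from limma (n = 3 arrays in each group). Filled symbols, adjusted p under 0.05, are Kat2b in COX-1-/- mice (-0.19) and Nab1 in COX-2+/+ mice (-0.251); 3 probes had no COX-1 cortex values. Both called differences share their cortex arrays with a comparison that chose the gene.

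Probes in neighbouring rows of the table varied together, which bears on each value above. Over arrays, the median r between probes 1 row apart was 0.528 in the first part of the table and 0.413 in the second. At a distance of 22 rows it was again 0.557 and 0.466, and at 300 rows it was -0.0515 and -0.00583. The layout of the spots is not given in the sources used here. Nab1 probe 6790 followed its neighbours most closely, with a mean r of 0.811 at 1 row and 0.772 at 22 rows. Nr1h2 (0.604 and 0.672) and Tef (0.589 and 0.636) did so too, while Kat2b probe 13210 followed those 1 row away (0.52) but not those at 22 rows (0.061).

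The 12 probes at distances of 1, 2, 21, 22, 23 and 44 rows of a probe on either side gave the differences to set beside its own. For Nr1h2 their median null minus wild-type difference was 0.185 in COX-1 hippocampus, with all 12 higher in null mice, and 0.157 in COX-2 hippocampus, again with all 12 higher. The values of Nr1h2 itself were 0.189 and 0.158. For Nab1 the neighbours' median was 0.191 in COX-1 hippocampus (own value 0.209) and -0.149 in COX-2 cortex (own value -0.216), with all 12 in the same direction in each. In COX-2+/+ mice the hippocampus minus cortex difference of the Nab1 neighbours was -0.169 in the median against -0.251 for Nab1, and 2 of the 12 were at least as low.

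For Tef and Kat2b the values are likewise given side by side, and since the genes were chosen for the size of these null minus wild-type differences and their neighbours were not, nothing is read from which is the larger. In COX-2-/- cortex the neighbours of Tef ranged from -0.176 to -0.0145 (median -0.116), all lower in null cortex, and Tef was at -0.298. In COX-2-/- hippocampus its difference was 0.182 and theirs ranged from 0.084 to 0.206. In COX-2-/- mice its hippocampus minus cortex difference was 0.3, and the highest of theirs was 0.205. The neighbours of Kat2b probe 13210 in COX-1-/- cortex ranged from -0.129 to 0.205 (median 0.0835), against its own 0.206. Those at 21 to 44 rows hardly varied with this probe (mean r of -0.0198 to 0.184). For its regional difference in COX-1-/- mice the neighbours' median was -0.0403, and 2 of 12 were at least as low as Kat2b. With the neighbours' median subtracted on each array, a setting chosen after seeing these correlations, the difference was -0.206 for Tef in COX-2-/- cortex and 0.209 for Kat2b in COX-1-/- cortex. That median is taken over the neighbours' Z levels without centring each probe, so it need not follow their median difference. For Kat2b the latter was 0.0835, yet its own 0.206 was not reduced. The values after subtraction therefore do not show what remains without the shared variation. The regional difference of Kat2b in COX-1-/- mice was then -0.119 (adjusted p = 0.0369). Nr1h2 in COX-1-/- (0.105) and COX-2-/- hippocampus (0.0379), Nab1 in COX-2-/- cortex (-0.064) and COX-1-/- hippocampus (0.0396) and Tef in COX-2-/- hippocampus (0.012) no longer met the rule, and the regional difference of Nab1 in COX-2+/+ mice (-0.0927, adjusted p = 0.321) was no longer called. What the shared variation stems from was not tested.

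**Figure D4:**
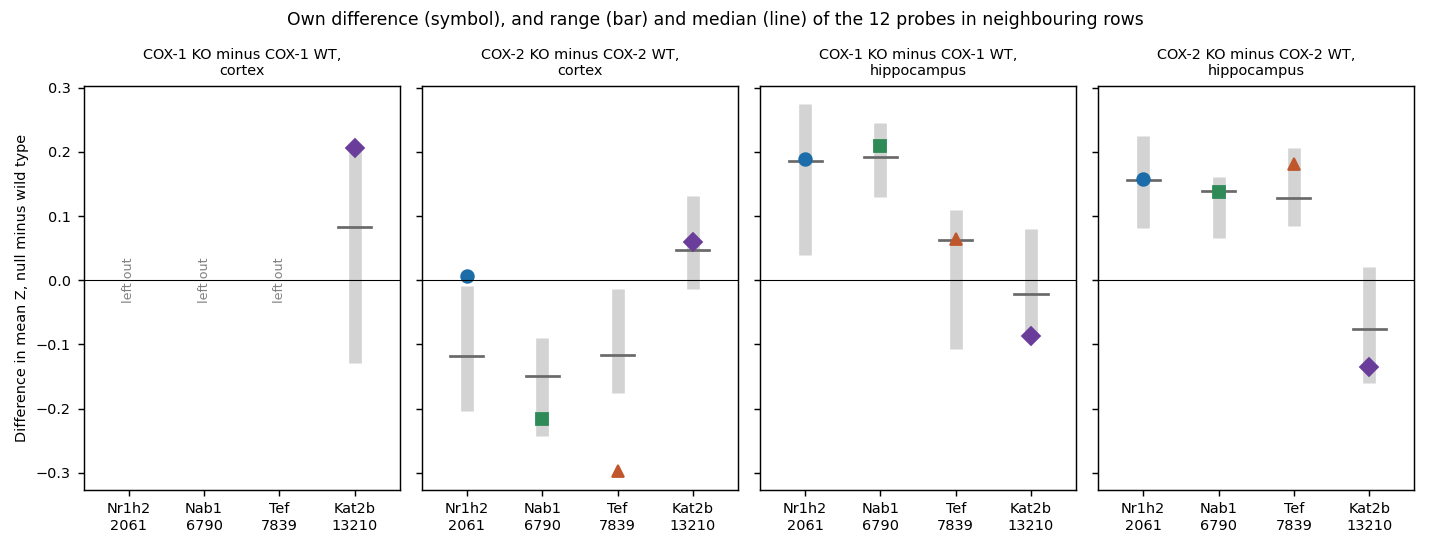
Null minus wild-type difference in mean Z (vertical axis) of the 4 probes with a mean Z above 0 in the 4 comparisons that chose the genes (symbols), with the range (grey bar) and the median (line) of the 12 probes in neighbouring rows. Nr1h2 in hippocampus sits on its neighbours' median, and Tef in COX-2-/- cortex is at -0.298 with neighbours from -0.176 to -0.0145.

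**Figure D5:**
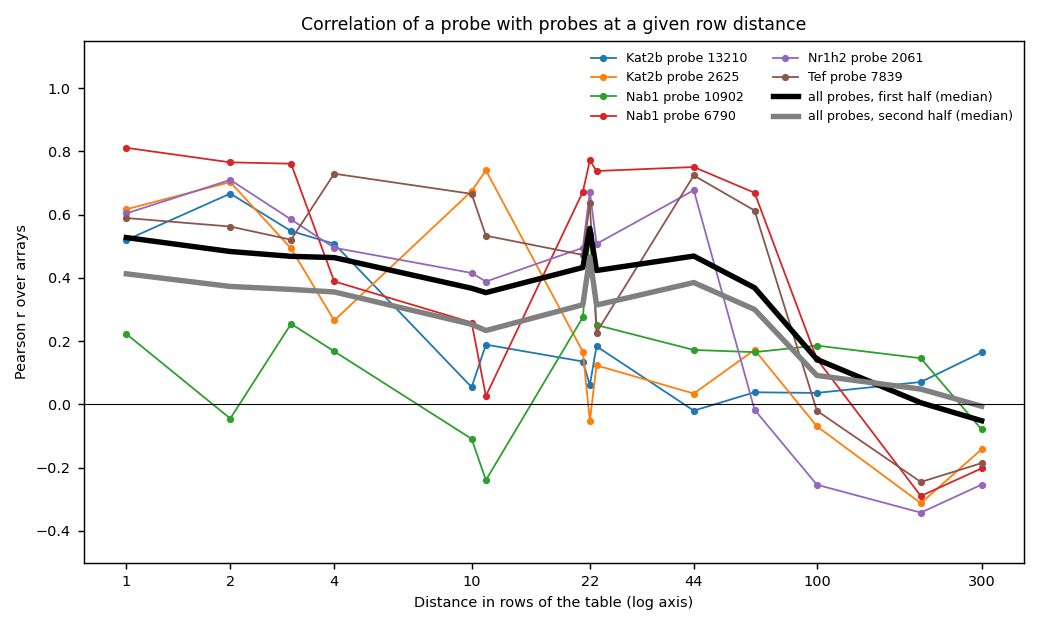
Pearson r over arrays (vertical axis) of each of the 6 probes with the probes at a given distance in rows (log horizontal axis, mean of the 2 sides), and the median over all probes of each part of the table (thick lines). The medians fall from 0.528 and 0.413 at 1 row to about 0 at 300 rows, with a rise at 22 rows.

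The probes most like those of the set, by Pearson r over the same arrays among 4538 named probes with a mean Z above 0, were in part such neighbours. For Nab1 probe 6790 they were Zfp955a (r = 0.877, the adjoining row), Ttc32 (0.856, 45 rows away) and Slx4ip (0.851, 23 rows away). For Tef they were Slc16a3, a monocarboxylate transporter (0.868, 43 rows away), Pabpc1, the poly(A)-binding protein (0.821, 4 rows away) and Rtraf (0.784, 44 rows away). Those of Nr1h2 lay elsewhere in the table and were Ddx39a (0.789), the chaperone Hsp90aa1 (0.788) and Gm9828 (0.77). For Kat2b probe 13210 they were Myo9a (0.762) and Mir100hg (0.741), 484 and 506 rows away, and Clasp1 (0.74), which is 2 rows away. These values are over 24 arrays, or 30 for Kat2b, and are a description.

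Of the genes that work with the 4 regulators, few had a probe that passed the filter. Of 17 listed LXR partners and nuclear receptor coregulators, 10 had a probe, and 3 to 6 of these were tested in a comparison. None was called in any of the 11 tested comparisons, in which 0 to 28.5% of all probes were. The smallest p among them were those of the coactivators Ncoa6, with a hippocampus minus cortex difference of 0.169 in COX-2+/+ mice (adjusted p = 0.0714), and Ncoa2, with 0.176 in heterozygotes (adjusted p = 0.153). Of 16 LXR target genes 8 had a probe. The cholesterol exporter Abca1 was higher in hippocampus (1.19 ± 0.0626, SD, n = 3) than in cortex (0.995 ± 0.0716) of COX-1+/+ mice (adjusted p = 0.00589), and no other was called. It was 1 of 4 LXR target probes tested there, against 28.5% of all probes, and these had a median difference of 0.041, against 0.00529 for all probes. In COX-2-/- mice, where Nr1h2 was also measured in both regions, Abca1 differed by -0.0138 between them (adjusted p = 0.934).

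Of 15 listed EGR factors and NAB partners, 4 genes had a probe and only Chd4, the remodeler that NAB proteins bring to EGR targets, passed the filter, with 2 probes. Its probe 5330 was higher in COX-2+/+ (0.441 ± 0.0701) than in COX-1+/+ hippocampus (0.211 ± 0.0353, adjusted p = 0.0298), while its probe 7251 differed by 0.0108 (adjusted p = 0.934). That is 1 of 2 probes, against 5.25% of all probes. In the same comparison Nab1 probe 6790 differed by 0.0107 (adjusted p = 0.933). None of the EGR factors themselves passed the filter.

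Of 26 PAR bZIP and clock genes 13 had a probe. Btrc, a ubiquitin ligase subunit that marks PER proteins for degradation, was lower in hippocampus than in cortex of COX-1+/+ (difference -0.191, adjusted p = 0.00168) and COX-1-/- mice (-0.259, adjusted p = 0.000123). In COX-1+/+ mice the kinase Csnk1d was higher in hippocampus (0.173, adjusted p = 0.0247) and Timeless probe 16381 lower (-0.191, adjusted p = 0.0126). Csnk1d was at 0.13 in hippocampus and -0.043 in cortex, and Timeless at -0.0325 and 0.159. Timeless probe 16381 was also higher in COX-2+/+ (0.197) than in COX-1+/+ hippocampus (difference 0.229, adjusted p = 0.0399). In these 3 calls the lower group lay below 0, so the probe passed the filter only through the higher group. Timeless was not called between the wild-type hippocampi on its probe 2602 (0.114, adjusted p = 0.152). The counts of called probes were thus 1 higher and 2 lower of 4 in COX-1+/+ mice between regions (28.5% of all probes; median -0.0578, all probes 0.00529), 0 higher and 1 lower of 4 in COX-1-/- mice (25.2%), 1 higher and 0 lower of 7 between the wild types in hippocampus (5.25%), and 0 in the other 8 comparisons.

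Of 32 histone acetyltransferases and SAGA or ATAC subunits 22 had a probe. In COX-1-/- mice, where Kat2b probe 13210 was lower in hippocampus, the SAGA subunit Supt20 was called as lower (-0.163, adjusted p = 0.0135). It was 1 of 7 probes tested, a share below the 25.2% of all probes (median -0.058, all probes -0.00798). In COX-1+/+ mice the acetyltransferase Kat7 (-0.15, adjusted p = 0.0027) and the shared TFIID and SAGA subunit Taf12 (-0.329, adjusted p = 0.0238) were lower in hippocampus, 2 of 8 probes called against 28.5% of all probes. Kat7 was at -0.0485 in hippocampus and 0.101 in cortex, so it passed the filter only through cortex. Taf10, likewise a TFIID and SAGA subunit, was higher in the hippocampus of heterozygotes on probe 13564 (0.187, adjusted p = 0.00899) and not on probe 12389 (0.0458, adjusted p = 0.448), 1 of 14 probes called against 12.6% of all. No probe of this list was called in the other 8 comparisons.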

How the data were processed

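The authors deposited Z scores: each array's natural log intensities minus their mean, over their SD, after imaging of 33P-labelled cDNA on custom nylon membranes. The score was standardised in each of the 2 parts of the table on its own. No counts exist, so the number of arrays limits the precision. Genes were named through the platform annotation, with 1 symbol for 9663 probes, and Nr1h2 by its z ratio and P (relative tolerance 0.001). Groups came from the sample titles.

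Comparisons of null with wild-type mice followed the study's rule and are a description, because the genes were chosen from them. The other 11 comparisons were fitted with limma (version 3.58.1, R 4.3.3) on group means with empirical Bayes moderation. Benjamini-Hochberg adjustment ran over probes with a mean Z above 0 on the compared arrays, and an adjusted p under 0.05 was called. Genotype comparisons were fitted over the arrays of a region, regional ones over both regions, with the copied values left out of the fit and of the z ratio's SD. An exact permutation test of 3 against 3 arrays cannot go below 0.1 and was not used. The code was tested on simulated data.

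Named were all probes of the 4 genes, the 3 probes most like each, and, of 5 lists of related genes, those called, or for a list with none the 2 with the smallest p. The genes, lists and markers were chosen with earlier results of these data known. Alternatives covered centring, quantile normalization, filters, intensity trend, only the compared groups, row order, the SD used, controls, a replicate block and leaving out each array.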

Additional observations from a re-analysis of the deposited data

Results flagged for a closer look

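The differences below ran in opposite directions in cortex and hippocampus, with no overlap between the arrays of the compared groups in either region. The difference between regions was not tested. For Kat2b probe 13210, COX-1-/- minus COX-1+/+ was 0.206 in cortex and -0.087 in hippocampus, which is -0.293 in hippocampus relative to cortex. For Tef, COX-2-/- minus COX-2+/+ was -0.298 in cortex and 0.182 in hippocampus, which is 0.48 in hippocampus relative to cortex. Both genes were chosen for a null minus wild-type difference. All 12 probes in neighbouring rows of Tef were also lower in null cortex (median -0.116) and higher in null hippocampus (median 0.129). Of the 12 neighbours of Kat2b probe 13210, 10 were higher in null cortex (median 0.0835) and 8 lower in null hippocampus (median -0.0222). For Nr1h2, COX-2+/- minus COX-2-/- was 0.117 in cortex and -0.124 in hippocampus, which is -0.24 in hippocampus relative to cortex. Nr1h2 was chosen for higher values in null hippocampus, and those COX-2-/- arrays are part of the -0.124. In cortex the 12 probes in neighbouring rows had a median of 0.124, all in the same direction and 7 at least as large as Nr1h2. In hippocampus their median was -0.0366, with 9 in the same direction and 1 at least as large.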

How the results depend on the processing

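Counts below are of the set's probes called, the reported first. In COX-2-/- against wild-type cortex 2 became 1 with a mean Z above 0.5 required and 1 with neighbouring rows subtracted. In COX-1-/- against wild-type hippocampus 2 became 1 with a mean Z above 0.5, 1 with the row order correction, 1 with the SD taken within the part of the table and 0 with neighbouring rows subtracted. In COX-2-/- against wild-type hippocampus 2 became 1 with quantile normalization, 0 with a mean Z above 0.5, 1 with the row order correction, 1 with the SD of the part and 0 with neighbouring rows subtracted. In COX-2+/- against wild-type hippocampus 0 became 1 with an intensity trend (Nab1, adjusted p = 0.0403). Between regions, 0 became 1 in COX-1+/+ mice with quantile normalization (Kat2b 0.117, adjusted p = 0.0434) and with neighbouring rows subtracted (0.172, adjusted p = 0.00305). In COX-2+/+ mice 1 became 0 with only the 2 groups fitted (Nab1 adjusted p = 0.109) and with neighbouring rows subtracted. In COX-2-/- mice 0 became 1 (Tef) with median centring (adjusted p = 0.0475) and with an intensity trend (0.0257). In heterozygotes 0 became 1 without the filter on mean Z (Nab1 probe 10902), with the row order correction (Kat2b 0.14, adjusted p = 0.0451) and with neighbouring rows subtracted (0.137, adjusted p = 0.0339). The cause was not tested.

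With each array left out in turn the count ranged from 0 to 1 in COX-1-/- against wild-type cortex, 0 to 2 in COX-1-/- and 0 to 3 in COX-2-/- against wild-type hippocampus, 0 to 1 in COX-2+/- against null hippocampus, 0 to 1 between regions in COX-2+/+ mice and 0 to 2 in COX-2-/- mice. With the replicate number as a block, the regional count became 1 in COX-1+/+ mice (Kat2b adjusted p = 0.0477) and 0 in COX-2+/+ mice (Nab1 adjusted p = 0.0551), and the counts of the other tested comparisons did not move. Over all probes the block took the regional count from 275 to 94 in COX-2+/+ mice and from 41 to 3 in COX-2-/- mice. The sources do not say what a number marks. Deviations of same-numbered cortex and hippocampus arrays correlated at -0.0378 to 0.211, with the same number closest of 3 in 6 of 15 cases. Between genotypes it mostly was closest, in 21 of 30 cases in cortex (r of -0.0529 to 0.169) and 17 of 30 in hippocampus (-0.0813 to 0.167). Replicate 2 was the lowest in all 5 cortex groups for Kat2b probe 13210, and in all 3 for Nab1 probe 6790 and for Tef. Not every pair exceeded 0.1, and the main fits took no account of the number. Whether arrays of a number share a source was not tested.

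No difference that changed sign had been called. Quantile normalization gave 0.00129 for Tef in COX-2+/- against wild-type cortex, -0.00477 for Nab1 between the wild-type hippocampi and 0.00176 for Nr1h2 between regions of COX-2+/+ mice. The row order correction gave 0.0229 for Tef in COX-2+/- against null hippocampus. Between the wild-type hippocampi it gave -0.0246 for Nr1h2, -0.00583 for Nab1 and -0.00294 for Tef. Between regions it gave 0.0273 for Nr1h2 and -0.00177 for Kat2b in COX-2+/+ mice and 0.018 for Tef in heterozygotes. With neighbouring rows subtracted Nr1h2 was -0.0649 in COX-2+/- against wild-type hippocampus, Tef was 0.0356 in COX-2+/- against null hippocampus and Nab1 was -0.0105 between the wild-type hippocampi. Between regions the values were then 0.043 for Nr1h2 in COX-2+/+ mice, -0.0349 for Nab1 in COX-2-/- mice and 0.0214 for Tef in heterozygotes. Leaving out each array gave -0.0608 to 0.0394 for Tef in COX-2+/- against wild-type cortex, -0.032 to 0.0687 for Nab1 and -0.00473 to 0.0371 for Tef between the wild-type hippocampi, and -0.0318 to 0.0278 for Nr1h2 between regions of COX-2+/+ mice. Over all alternatives, 616 single-probe differences were labelled unchanged, 27 reversed in sign, 33 no longer called and 11 newly called. Another 8, uncalled null ones, moved by more than the SD between arrays. The 27 leave out Nr1h2 in COX-2-/- against wild-type cortex (above). Of the counts, 181 stayed within 1.5 times and 37 did not.

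Counts over all probes moved further. Without the filter on mean Z, 2160 rather than 423 differed between the wild-type hippocampi, and 2639 rather than 1177, 2207 rather than 1040 and 1926 rather than 1008 differed between regions in COX-1+/+, COX-1-/- and COX-2+/- mice. With only the 2 groups fitted, 16 rather than 275 differed between regions in COX-2+/+ mice, and 0 rather than 41 in COX-2-/- mice. With the copied rows kept in the SD, 230 rather than 111 met the rule in COX-1-/- cortex, and Kat2b still did. The limits are 3 arrays a group, neighbouring rows that vary together and a signal over background that Z does not give.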
